A study of Mus musculus with 24 samples.

Results

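The comparison described here asked how forced expression of ID1 altered the RNA of mouse epidermal progenitors after 24 h of calcium-induced differentiation. It covers 6 of the 24 libraries of the series: 3 ID1 +dox 24h libraries and 3 ID1 -dox 24h libraries. Members were chosen by their labels alone, and every gene with a value of at least 1 in 3 or more of the 12 ID1 libraries was tested, which gave 10789 genes of the 10818 in the table. The cells were primary wild-type epidermal progenitors from newborn mice, grown as progenitors in low calcium on a fibroblast feeder line, and moved to high calcium to differentiate. All 12 ID1 libraries came from progenitors that carried a doxycycline-inducible ID1 lentivirus. ID1 +dox cells received doxycycline for 3 days and ID1 -dox cells did not, so the drug and the induced protein cannot be told apart. Wording such as with ID1 or ID1 induction below means only ID1 +dox against ID1 -dox. ID1 +dox 0h and ID1 -dox 0h libraries were made from the same kind of culture in low calcium, and *shId1* and *shScr* libraries from progenitors with a silencing or a scrambled hairpin. Whether the 24 h of calcium fell within the 3 days of doxycycline is not stated. It is not stated either whether replicates came from separate cultures, so p-values measure only the spread between these libraries, which may be technical.

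ID1 belongs to the inhibitor of DNA binding proteins, which hold a helix-loop-helix domain but no DNA-binding region. They pair with E proteins such as TCF3, TCF4 and TCF12 and keep them from DNA. In skin, ID1 is known as a protein of basal progenitors. Calcium moves cultured keratinocytes out of the basal state: they join through desmosomes, switch to the spinous keratins KRT1 and KRT10, and later make the envelope proteins, loricrin, SPRR and LCE among them, that transglutaminases crosslink under the membrane of a dying cornified cell.

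Values are TMM-scaled CPM, that is, reads of a gene as a rate per library, with library sizes scaled by the trimmed mean of M-values (TMM). They were not divided by gene length, so levels are compared within a gene only. A gene was called when limma on log2(value + 0.5) gave a Benjamini-Hochberg adjusted p under 0.05 together with a change over 2-fold, and every log2 fold change below is on that scale, ID1 +dox 24h over ID1 -dox 24h. Of 10789 genes, 228 were called (2.11%), 104 higher (0.964%) and 124 lower (1.15%). Without the fold limit 2330 genes passed (21.6%), 1149 higher (10.6%) and 1181 lower (10.9%). Values of the groups did not overlap in 33.8% of all genes, in all 124 genes called lower and in 103 of the 104 called higher. The median log2 fold change of all genes tested was -0.01.

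*Id1* itself was measured first as a check of the labels. It stood at 106, 96.0 and 76.1 in the ID1 +dox 24h libraries, against 73.9, 67.5 and 59.7 in the ID1 -dox 24h libraries. The groups did not overlap, yet the log2 fold change of 0.46 ± 0.27 (SE; adjusted p = 0.232) did not pass. With edgeR on the recovered reads of the 6 libraries it did, at 0.48 (adjusted p = 0.0409). That was the lowest adjusted p among 17 alternatives, which ran up to 0.507. In low calcium the same check gave 41.6, 107 and 73.0 in the ID1 +dox 0h libraries, against 10.5, 13.2 and 7.15 in the ID1 -dox 0h libraries (log2 fold change 2.72, adjusted p = 2.51e-06). The 24h effect of doxycycline on *Id1* was below the 0h effect, with a difference of -2.26 on the log2 scale (interaction, adjusted p = 0.00121). Mean *Id1* went from 10.3 in ID1 -dox 0h to 67.0 in ID1 -dox 24h, and from 73.7 in ID1 +dox 0h to 92.7 in ID1 +dox 24h. In *shScr* cells it changed by -0.99 with calcium on the log2 scale (limma adjusted p = 0.0376). The cause of the rise in uninduced cells was not tested. The table does not separate RNA of the lentivirus from that of the mouse gene. *Id2*, a sister inhibitor, was 21.7, 20.8 and 24.6 in the ID1 +dox 24h libraries, against 11.1, 12.7 and 9.52 in the ID1 -dox 24h libraries, a log2 fold change of 0.98 ± 0.17 (SE; adjusted p = 0.00129) that passed the test just under 2-fold. *Id3* (-0.43) and the partners *Tcf3* (0.39), *Tcf4* (-0.36) and *Tcf12* (-0.25) had log2 fold changes that did not pass, with adjusted p values of 0.161, 0.0574, 0.139 and 0.108. *Cebpa*, a basic leucine zipper factor of differentiating epidermis, differed by -0.07 ± 0.24 (SE; adjusted p = 0.862). *Id4* was not analysed here.

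The 6 libraries held between 23721771 and 29111471 reads as recovered from the table, and 1 read was worth between 0.0399 and 0.0496 of a unit. Across genes, replicates correlated at r of 0.982 to 0.995 within ID1 +dox 24h, where replicate 3 stood apart at 0.982 and 0.989, and at 0.994 to 0.996 within ID1 -dox 24h. All 10 keratinocyte markers were tested and their summed level ranged from 4.82% to 5.55% of all values in ID1 +dox 24h libraries and from 4.94% to 5.41% in ID1 -dox 24h libraries. None of 14 leukocyte and Langerhans cell markers was in the table. Of 25 fibroblast and feeder markers 5 were measured, and their sum was 0.046% to 0.0482% in ID1 +dox 24h libraries and 0.0403% to 0.0407% in ID1 -dox 24h libraries. The 4 measured of 16 hair follicle and sebocyte markers summed to 0.0371% to 0.0393% in ID1 +dox 24h libraries and to 0.0425% to 0.0456% in ID1 -dox 24h libraries. Mitochondrial-encoded genes made up 0.952% to 1.33% in ID1 +dox 24h libraries and 0.837% to 0.907% in ID1 -dox 24h libraries. The part of these shifts in the results was not tested.

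Chemokines are small secreted proteins that draw leukocytes. *Cxcl1*, *Cxcl2* and *Cxcl3* act on the neutrophil receptor CXCR2, and *Ccl20* is the ligand of CCR6 on dendritic cells and T cells. *Cxcl2* stood at 1.93, 1.79 and 1.48 in the ID1 +dox 24h libraries, against 15.5, 20.8 and 26.8 in the ID1 -dox 24h libraries. Even its highest induced library lay far under its lowest uninduced library, with a log2 fold change of -3.24 ± 0.20 (SE; adjusted p = 3.55e-07). *Ccl20* was 1.83, 1.98 and 1.12 in the ID1 +dox 24h libraries, against 14.5, 13.0 and 13.1 in the ID1 -dox 24h libraries (log2 fold change -2.74 ± 0.19 SE, adjusted p = 6.57e-07). *Cxcl1* was 16.7, 18.9 and 13.4 in the ID1 +dox 24h libraries, against 79.2, 82.2 and 82.9 in the ID1 -dox 24h libraries (log2 fold change -2.30 ± 0.19 SE, adjusted p = 4.58e-06). *Cxcl3* was 17.8, 15.1 and 15.6 in the ID1 +dox 24h libraries, against 30.8, 49.7 and 47.0 in the ID1 -dox 24h libraries (log2 fold change -1.34 ± 0.23 SE, adjusted p = 0.00106). All 3 induced libraries lay below all 3 uninduced libraries for each of these genes, as for all 124 genes called lower. Groups did not overlap in 33.8% of all genes. *Ppbp*, another CXCR2 ligand, went the other way at 94.6, 86.1 and 78.4 in the ID1 +dox 24h libraries, against 21.3, 30.3 and 31.0 in the ID1 -dox 24h libraries (log2 fold change 1.65 ± 0.32 SE, adjusted p = 0.00255). *Cxcl5* (-0.51, adjusted p = 0.196) and *Cxcl16* (0.26, adjusted p = 0.313) did not pass. Of the 7 chemokines tested 4 were called lower and 1 higher, against 1.15% and 0.964% of all genes. Both counts held in each of the alternatives tried.

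The 4 chemokine genes that fell share a match to the NF-kappaB consensus close to their start, and their RefSeq windows (GRCm38.p6, 250 bases before to 50 after the start, plus strand genes) are shown for that reason, with the match in capitals. They are chr5:90890995-90891294 for *Cxcl1*, chr5:90903649-90903948 for *Cxcl2*, chr5:90785851-90786150 for *Cxcl3* and chr1:83116516-83116815 for *Ccl20*.
Cxcl1: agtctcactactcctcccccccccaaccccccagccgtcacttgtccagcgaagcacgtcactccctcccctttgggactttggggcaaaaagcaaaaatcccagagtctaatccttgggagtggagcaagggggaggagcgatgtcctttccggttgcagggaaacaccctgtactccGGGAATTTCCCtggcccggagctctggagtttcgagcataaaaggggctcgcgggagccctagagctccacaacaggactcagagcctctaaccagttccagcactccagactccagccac
Cxcl2: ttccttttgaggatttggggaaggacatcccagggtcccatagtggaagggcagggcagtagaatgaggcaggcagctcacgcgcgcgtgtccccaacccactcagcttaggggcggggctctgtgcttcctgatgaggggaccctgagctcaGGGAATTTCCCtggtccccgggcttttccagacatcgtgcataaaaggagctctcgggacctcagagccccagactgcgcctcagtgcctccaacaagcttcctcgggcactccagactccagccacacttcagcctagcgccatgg
Cxcl3: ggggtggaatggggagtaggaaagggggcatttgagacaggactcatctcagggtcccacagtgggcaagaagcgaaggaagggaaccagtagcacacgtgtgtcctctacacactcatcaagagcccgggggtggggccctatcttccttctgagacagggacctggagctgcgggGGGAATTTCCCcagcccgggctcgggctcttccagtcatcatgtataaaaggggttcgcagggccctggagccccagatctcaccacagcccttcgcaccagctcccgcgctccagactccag
Ccl20: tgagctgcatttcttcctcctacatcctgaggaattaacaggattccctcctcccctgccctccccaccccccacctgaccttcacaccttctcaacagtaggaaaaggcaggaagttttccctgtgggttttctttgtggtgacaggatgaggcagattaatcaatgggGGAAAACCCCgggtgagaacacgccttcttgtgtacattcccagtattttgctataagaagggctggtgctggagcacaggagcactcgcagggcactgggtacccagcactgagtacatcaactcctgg
The 3 CXC genes, neighbours on chromosome 5, hold the same run of capitals, in which matches on both strands overlap. Counted from the start site, the run begins at -71 in *Cxcl1*, -97 in *Cxcl2* and -73 in *Cxcl3*, and the *Ccl20* match runs from -80 to -71 on the opposite strand. Across all 32851 RefSeq windows of this length 4.51% held a match on either strand. Among genes called lower 5.77% of 104 windows held it, and among those called higher 5.61% of 107. Of the 7 chemokines tested 5 had a window, and 4 of these held a match. Among alarmins it was in 16.7% of 6 windows of genes called lower and in 19.2% of 26 windows of all members tested. A match of letters is a description and not evidence of a bound factor.

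Cytokines and alarmins of the keratinocyte fell beside the chemokines. Of 30 members tested 10 were called lower and none higher, against 1.15% and 0.964% of all genes. With an adjusted p under 0.05, 19 were lower, against 10.9% of all genes. The list median was -0.63. *Il24*, an IL-20 family cytokine of keratinocytes, stood at 95.9, 86.0 and 62.4 in the ID1 +dox 24h libraries, against 288, 346 and 481 in the ID1 -dox 24h libraries (log2 fold change -2.17 ± 0.21 SE, adjusted p = 1.31e-05). *Csf3*, which encodes the granulocyte growth factor G-CSF, was 3.99, 4.59 and 1.96 in the ID1 +dox 24h libraries, against 13.2, 17.0 and 23.1 in the ID1 -dox 24h libraries (log2 fold change -2.22 ± 0.28 SE, adjusted p = 9.38e-05), and in a fit of all 24 libraries its adjusted p was 0.0683. *Il23a*, the p19 subunit of IL-23, was 0.413, 0.531 and 0.719 in the ID1 +dox 24h libraries, against 2.48, 2.88 and 3.13 in the ID1 -dox 24h libraries (log2 fold change -1.66 ± 0.20 SE, adjusted p = 6.17e-05). The groups did not overlap in any of the 3, as in every gene called lower and in 33.8% of all genes. *S100a8* and *S100a9*, the subunits of calprotectin, were low in both groups. *S100a8* was 0.871, 0.821 and 0.439 in ID1 +dox 24h, against 3.0, 3.42 and 3.67 in ID1 -dox 24h (-1.69), and *S100a9* was 0.275, 0.435 and 0.439 in ID1 +dox 24h, against 1.96, 2.52 and 2.23 in ID1 -dox 24h (-1.63). *Il1f9*, which encodes IL-36 gamma, was 2.66, 2.95 and 7.03 in ID1 +dox 24h, against 12.1, 14.0 and 11.9 in ID1 -dox 24h, with the induced replicate 3 nearest to the uninduced cells. *Ptgs2*, the inducible cyclooxygenase, changed by -1.03, and *Nlrp10* by -1.18. *Nfkbia* (-0.67) and *Tnfaip3* (-0.67), inhibitors that NF-kappaB itself switches on, passed at less than 2-fold. *Il18* (-0.18), *Il33* (-0.33) and *Defb14* (0.04) did not pass. With a filter of 5 in place of 1 on low values 4 members were left as calls, since *S100a7a*, *S100a8*, *S100a9*, *Il19*, *Il23a* and *Nlrp10* then were not tested.

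**Figure D1:**
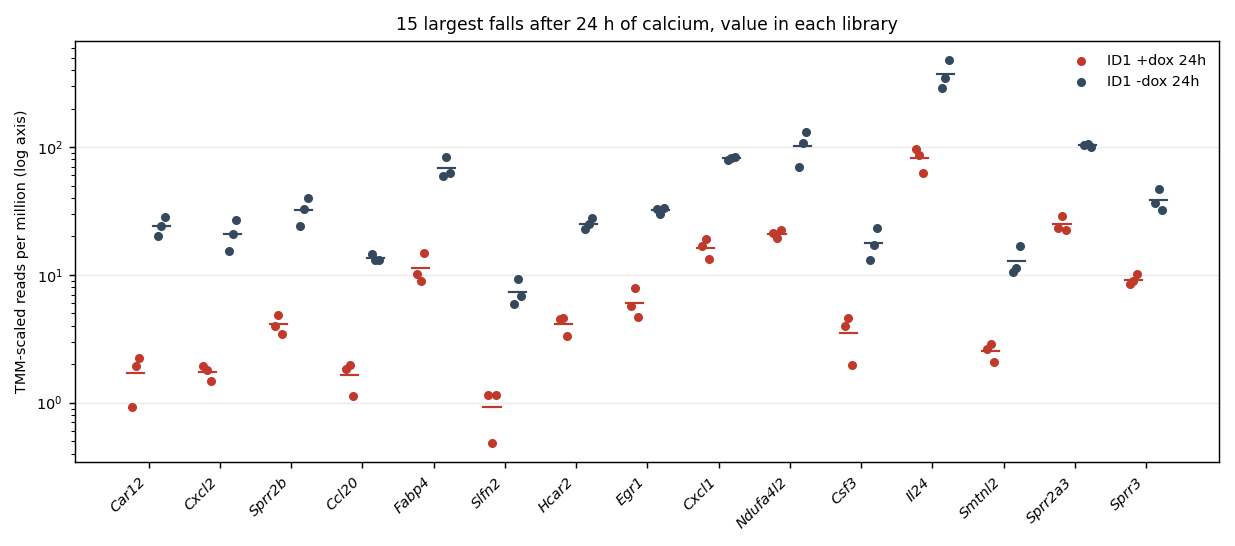
The 15 largest falls, with TMM-scaled CPM on a log axis and a point for each library (red, ID1 +dox 24h; dark blue-grey, ID1 -dox 24h; bars, group means of 3). Only genes whose groups do not overlap were eligible, so all 3 induced libraries lie below all 3 uninduced libraries by choice. *Cxcl2* was at 1.93 or less against 15.5 or more.

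Cornified envelope precursors were called lower in 18 of 36 members tested and higher in none, against 1.15% and 0.964% of all genes. The list median was -1.0. Without the fold limit 28 members passed, all lower, against 10.9% of all genes. The falls were spread over 3 families that lie together in the epidermal differentiation complex on chromosome 3. *Sprr2b* was 3.99, 4.88 and 3.43 in the ID1 +dox 24h libraries, against 24.0, 32.8 and 39.9 in the ID1 -dox 24h libraries (log2 fold change -2.81 ± 0.24 SE, adjusted p = 4.58e-06). *Sprr2a3* was 23.2, 29.0 and 22.3 in the ID1 +dox 24h libraries, against 104, 105 and 100.3 in the ID1 -dox 24h libraries (log2 fold change -2.04 ± 0.18 SE, adjusted p = 4.78e-06), and *Sprr3* was 8.44, 8.93 and 10.2 in the ID1 +dox 24h libraries, against 36.6, 47.3 and 32.0 in the ID1 -dox 24h libraries (log2 fold change -2.0 ± 0.24 SE, adjusted p = 6.76e-05), with an adjusted p of 0.119 in a fit of all 24 libraries. These small proline-rich proteins serve as bridges between other envelope proteins, and 7 of 12 measured were called lower. The abundant *Sprr1a* read 961, 833 and 1113 in ID1 +dox 24h, against 1859, 2693 and 1798 in ID1 -dox 24h (-1.11). *Sprr1b* (-0.78) and *Sprr2d* (-0.85) passed under 2-fold.

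The late cornified envelope genes were lower at modest levels. *Lce1i* was 2.52, 2.22 and 2.12 in the ID1 +dox 24h libraries, against 6.47, 7.64 and 6.0 in the ID1 -dox 24h libraries (log2 fold change -1.37 ± 0.18 SE, adjusted p = 1.10e-04). *Lce1e* read 2.52, 2.12 and 1.76 in ID1 +dox 24h, against 8.67, 9.35 and 5.80 in ID1 -dox 24h (-1.66) and *Lce1g* 4.40, 3.04 and 5.11 in ID1 +dox 24h, against 13.2, 11.4 and 9.47 in ID1 -dox 24h (-1.36). Of 10 Lce1 genes 8 were called lower, against 1.15% of all genes. All 10 passed without the fold limit, against 10.9% of all genes lower, with changes from -1.66 in *Lce1e* to -0.92 in *Lce1f*. *Lce3a*, *Lce3c* and *Lce3f* fell too, by -1.16, -1.28 and -1.28, and all 3 Lce3 genes tested were called. Lce1 and Sprr2 genes are near-identical copies, and reads may have been split or moved between them by the counting, so single members are uncertain. Of the scaffold genes, *Ppl* (0.03), *Evpl* (0.04) and *Scel* (0.28), which encode periplakin, envoplakin and sciellin, did not pass, and *Ivl*, involucrin, was 41.2, 39.6 and 49.8 in ID1 +dox 24h, against 55.7, 54.5 and 60.3 in ID1 -dox 24h (-0.39, adjusted p = 0.0209), under 2-fold. Leaving out ID1 -dox 24h replicate 2, the highest uninduced library in 15 of the 18, left 12 envelope calls and 3 Sprr calls, and a fit of all 24 libraries left 9 and 2. Without ID1 +dox 24h replicate 3 there were 21 envelope calls. In bulk libraries fewer cells of a type and less RNA per cell cannot be told apart.

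Crosslinking and processing enzymes moved in a few members. *Tgm3*, a transglutaminase of late differentiation, was 4.26, 4.30 and 3.07 in the ID1 +dox 24h libraries, against 14.8, 12.4 and 11.3 in the ID1 -dox 24h libraries (log2 fold change -1.61 ± 0.27 SE, adjusted p = 8.25e-04). *Tgm1*, which acts at the membrane, was 29.6, 29.9 and 20.3 in ID1 +dox 24h, against 24.9, 29.4 and 24.9 in ID1 -dox 24h (-0.01 ± 0.17), and *Tgm5* 135, 137 and 114 in ID1 +dox 24h, against 200.1, 213 and 199 in ID1 -dox 24h (-0.67, adjusted p = 0.094). *Padi4*, a citrullinating enzyme, was lower at low values, 1.24, 0.531 and 0.559 in ID1 +dox 24h, against 2.36, 2.52 and 2.28 in ID1 -dox 24h. *Klk6*, a kallikrein protease, was 12.9, 14.1 and 29.9 in ID1 +dox 24h, against 36.1, 68.4 and 33.5 in ID1 -dox 24h (-1.28), with a change of -0.96 and no call once ID1 -dox 24h replicate 2 was left out. With a pseudocount of 1 *Padi4* changed by -0.95 and was not called. Of 23 enzymes these 3 were called lower and none higher, against 1.15% and 0.964% of all genes. *Cdsn*, corneodesmosin, was 1473, 1291 and 1035 in ID1 +dox 24h, against 825, 1048 and 984 in ID1 -dox 24h, and the log2 fold change of 0.40 ± 0.15 (SE; adjusted p = 0.0628) did not pass.

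Of 21 spinous and desmosomal genes 8 were lower and none higher with an adjusted p under 0.05, against 10.9% lower and 10.6% higher among all genes, and 2 were called. *Krt10*, a keratin of the first suprabasal layer, was 43.7, 49.4 and 115 in the ID1 +dox 24h libraries, against 159, 284 and 195 in the ID1 -dox 24h libraries, a log2 fold change of -1.71 ± 0.30 (SE; adjusted p = 0.0013). The induced replicate 3 was more than 2-fold above its 2 partners, but still below every uninduced library. *Calml3*, a calmodulin-like protein of stratified epithelia, was 13.4, 9.90 and 18 in ID1 +dox 24h, against 28.2, 44.2 and 30.4 in ID1 -dox 24h (-1.29). These were the 2 calls, both lower, against 1.15% of all genes, and the list median was -0.31. Without ID1 +dox 24h replicate 3 there were 4 calls and 11 genes lower with an adjusted p under 0.05, and without ID1 +dox 24h replicate 1 the 8 became 5. *Krtdap*, keratinocyte differentiation-associated protein, passed at -0.43 ± 0.09 (SE; adjusted p = 0.00294), under 2-fold. *Dsg1b* (-0.94) and *Dsg4* (-0.98), desmosomal cadherins of upper layers, came close to 2-fold with adjusted p of 0.0033 and 0.00298. *Krt1* was not analysed here.

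Basal genes changed by less than 2-fold throughout. *Krt5* (0.08 ± 0.12) and *Krt14* (-0.01 ± 0.11), the basal keratin pair, did not pass, nor did *Krt15* (-0.33 ± 0.27). *Trp63*, the master factor of stratified epithelium, was 167, 189.6 and 205 in ID1 +dox 24h, against 309, 280.4 and 329.7 in ID1 -dox 24h (log2 fold change -0.71 ± 0.09 SE, adjusted p = 1.39e-04). Integrin *Itga6* (-0.77), *Col17a1* (-0.52) and laminin *Lama3* (-0.72), parts of the hemidesmosome and its anchor, were lower with adjusted p of 9.80e-05, 0.00116 and 9.31e-04. *Col4a1* (0.84) and *Col4a2* (0.81), the collagen IV chains of basement membrane, were higher with adjusted p of 2.81e-04 and 4.31e-04. Of 33 basal keratin and adhesion genes 5 were higher and 10 lower at an adjusted p under 0.05, against 10.6% and 10.9% of all genes, and none was called. The 10 became 6 without ID1 +dox 24h replicate 2, and the 5 became 3 without ID1 +dox 24h replicate 1. *Sox4*, an SRY-related transcription factor, was 9.86, 9.42 and 12.9 in ID1 +dox 24h, against 21.2, 22.3 and 25.9 in ID1 -dox 24h and fell by 1.09 on the log2 scale. *Klf4* (-0.27), *Cebpb* (-0.35) and *Cdkn1a* (-0.14) did not pass, and *Hes1* passed at -0.34.

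Lipid genes of the barrier were called lower in 3 of 33 members, against 1.15% of all genes. At an adjusted p under 0.05, 11 were lower and none higher, against 10.9% and 10.6% of all genes. The 11 became 5 without ID1 +dox 24h replicate 2. *Fabp4*, a fatty acid carrier, was 10.2, 9.03 and 14.8 in the ID1 +dox 24h libraries, against 59.8, 83.7 and 62.3 in the ID1 -dox 24h libraries (log2 fold change -2.56 ± 0.22 SE, adjusted p = 5.33e-06). *Alox12b*, the 12R-lipoxygenase that prepares ceramide for the lipid envelope, was 12.7, 13.3 and 12.7 in ID1 +dox 24h, against 23, 32.9 and 31.2 in ID1 -dox 24h (-1.12), with an adjusted p of 0.162 in a fit of all 24 libraries. *Pla2g4e*, a phospholipase, was 7.29, 5.07 and 5.91 in ID1 +dox 24h, against 11.5, 16.6 and 15.4 in ID1 -dox 24h, and its adjusted p lay between 0.0544 and 0.0741 without ID1 +dox 24h replicate 2 or 3 or ID1 -dox 24h replicate 2 or 3. *Fabp5* (-0.80) and *Degs1* (-0.89), a dihydroceramide desaturase, passed under 2-fold. Of 32 sterol and fatty acid synthesis genes 15 were lower at an adjusted p under 0.05, against 10.9% of all genes, and none was called. *Idi1* (-0.78) and *Stard4* (-0.81) were among the lowest, and *Fads1* (0.52) was higher.

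Genes of low oxygen and glycolysis were lower nearly as a block. Of 30 members tested 27 were lower with an adjusted p under 0.05 and none higher, against 10.9% lower among all genes. The calls, all lower, numbered 5, against 1.15% of all genes, and 3 without ID1 -dox 24h replicate 3. The median was -0.61 and the range ran from -3.54 to -0.08. *Car12*, a carbonic anhydrase of the cell surface, was 0.917, 1.93 and 2.24 in the ID1 +dox 24h libraries, against 20.3, 23.9 and 28.4 in the ID1 -dox 24h libraries (log2 fold change -3.54 ± 0.22 SE, adjusted p = 3.55e-07). *Ndufa4l2*, a mitochondrial protein that was outside the list, was 21.2, 19.6 and 22.4 in the ID1 +dox 24h libraries, against 70.4, 108 and 130.1 in the ID1 -dox 24h libraries (log2 fold change -2.22 ± 0.22 SE, adjusted p = 1.43e-05). *Ndrg1* was 308, 301 and 287 in ID1 +dox 24h, against 543, 773 and 985 in ID1 -dox 24h (-1.32). *Bnip3*, a receptor for removal of mitochondria, was 29.1, 28.0 and 34.1 in ID1 +dox 24h, against 59.0, 74.4 and 87.9 in ID1 -dox 24h (-1.25). *Ankrd37* read 19.4, 14.1 and 22.0 in ID1 +dox 24h, against 28.4, 44.8 and 42.3 in ID1 -dox 24h (-1.03). *Ero1l*, an oxidase of the endoplasmic reticulum, was 30.5, 37.4 and 50.9 in ID1 +dox 24h, against 62.9, 84.9 and 119 in ID1 -dox 24h (-1.14), and it changed by -0.97 without ID1 +dox 24h replicate 1 and -0.91 without ID1 -dox 24h replicate 3, short of a call. Enzymes of sugar breakdown moved less but together. *Hk2* changed by -0.83, *Pfkl* by -0.90, *Pgk1* by -0.76, *Ldha* by -0.61 and *Gapdh* by -0.54, each with an adjusted p under 0.05. The glucose transporter *Slc2a1* (-0.66), the oxygen sensors *Egln1* (-0.89) and *Egln3* (-0.65) and the vessel growth factor *Vegfa* (-0.59) were lower too, again with an adjusted p under 0.05. *Mif*, *Hk1* and *Aldoc* did not pass. *Epas1*, which encodes the oxygen-regulated factor HIF-2 alpha, was 11.4, 9.56 and 7.55 in ID1 +dox 24h, against 29.2, 21.2 and 19.7 in ID1 -dox 24h (log2 fold change -1.25 ± 0.23 SE, adjusted p = 0.00193).

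The hypoxia-inducible factors read the letters ACGTG or GCGTG, and the windows of *Bnip3* and *Ankrd37*, called members that hold both, are shown with either motif in capitals, on either strand, from RefSeq (GRCm38.p6, minus strand genes). They are chr7:138909457-138909756 for *Bnip3* and chr8:45999801-46000100 for *Ankrd37*.
Bnip3: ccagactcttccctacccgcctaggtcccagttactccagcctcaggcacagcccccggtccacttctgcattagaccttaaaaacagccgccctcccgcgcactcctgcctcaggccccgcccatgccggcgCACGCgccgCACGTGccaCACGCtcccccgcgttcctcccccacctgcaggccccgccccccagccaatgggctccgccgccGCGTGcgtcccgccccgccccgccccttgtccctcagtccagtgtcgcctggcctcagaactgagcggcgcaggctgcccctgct
Ankrd37: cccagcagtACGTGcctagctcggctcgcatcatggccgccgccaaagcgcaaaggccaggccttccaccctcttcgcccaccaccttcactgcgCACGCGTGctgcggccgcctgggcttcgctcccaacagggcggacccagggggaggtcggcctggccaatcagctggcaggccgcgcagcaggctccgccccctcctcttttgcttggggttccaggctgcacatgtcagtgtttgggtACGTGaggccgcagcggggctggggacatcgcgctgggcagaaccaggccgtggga
Of 38 windows of 27 list members 55.3% held ACGTG and 57.9% GCGTG, against 19.6% and 32.4% of all 32851 windows. ACGTG overlaps the E-box CANNTG where it follows a C, as in *Bnip3*, and CANNTG itself was in 72.3% of all windows, in 76.0% of windows of genes called lower and in 68.2% of those called higher. The list was written from known targets of these factors, so its motif share is a property of the list and no result of these libraries.

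Immediate early genes, which answer growth factor signals within minutes, were called lower in 4 of 20 members, against 1.15% of all genes. Without the fold limit 13 passed, all lower, against 10.9% of all genes. *Egr1*, a zinc finger factor, was 5.69, 7.87 and 4.67 in the ID1 +dox 24h libraries, against 33.0, 30.0 and 33.6 in the ID1 -dox 24h libraries (log2 fold change -2.34 ± 0.20 SE, adjusted p = 4.58e-06). *Fosl1*, an AP-1 subunit, was 27.0, 26.5 and 20.2 in the ID1 +dox 24h libraries, against 72.8, 88.9 and 98.4 in the ID1 -dox 24h libraries (log2 fold change -1.80 ± 0.18 SE, adjusted p = 2.26e-05). *Dusp6*, a phosphatase that limits ERK and is switched on by it, was 56.5, 54.4 and 42.7 in ID1 +dox 24h, against 140.3, 143 and 158 in ID1 -dox 24h (-1.52), and *Ier3* was 213, 179 and 187 in ID1 +dox 24h, against 449, 501 and 463 in ID1 -dox 24h (-1.29). All 3 values of one group were clear of the other in each of these, as in every gene called lower. Groups did not overlap in 33.8% of all genes. *Junb* (-0.83), *Atf3* (-0.78) and *Jun* (-0.61) passed under 2-fold, while *Fos* (-0.36) and *Fosl2* (-0.02) did not pass.

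Several ligands of the EGF receptor were lower as well. *Hbegf* was 28.5, 28.5 and 27.5 in the ID1 +dox 24h libraries, against 78.5, 94.3 and 109 in the ID1 -dox 24h libraries (log2 fold change -1.71 ± 0.16 SE, adjusted p = 1.07e-05). *Areg*, amphiregulin, was 8.12, 6.28 and 5.83 in ID1 +dox 24h, against 11, 16.1 and 18 in ID1 -dox 24h (-1.08), a call that ended without ID1 +dox 24h replicate 3 (-0.99) or ID1 -dox 24h replicate 3 (-0.94). *Epgn* (-0.95) and *Ereg* (-0.81) passed under 2-fold, as did the receptor *Egfr* (-0.41). The neuregulins *Nrg1* (0.48) and *Nrg2* (0.93), ligands of the sister receptors, and *Tgfa* (0.27) were higher with adjusted p of 0.0073, 2.98e-05 and 0.0231. Of 12 members 2 were called lower, against 1.15% of all genes (1 without ID1 -dox 24h replicate 3, 3 without ID1 +dox 24h replicate 2). At an adjusted p under 0.05, 6 were lower and 3 higher, against 10.9% and 10.6% of all genes.

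The remaining falls of rank were scattered in function. *Hcar2*, the receptor for niacin and ketone bodies, was 4.54, 4.59 and 3.35 in the ID1 +dox 24h libraries, against 22.9, 25 and 27.7 in the ID1 -dox 24h libraries (log2 fold change -2.47 ± 0.23 SE, adjusted p = 8.11e-06). *Slfn2*, a schlafen family gene, was 1.15, 0.483 and 1.16 in ID1 +dox 24h, against 5.91, 9.26 and 6.85 in ID1 -dox 24h (-2.47), and *Smtnl2* 2.61, 2.90 and 2.08 in ID1 +dox 24h, against 10.5, 11.2 and 16.7 in ID1 -dox 24h (-2.12). *Gja1*, connexin 43 of gap junctions, was 44.1, 51.0 and 48.0 in ID1 +dox 24h, against 120.0, 116 and 149 in ID1 -dox 24h (log2 fold change -1.42 ± 0.10 SE, adjusted p = 6.57e-07). *Cry1*, a repressor of the circadian clock, was 31.5, 29.1 and 23.8 in ID1 +dox 24h, against 58.2, 63.8 and 62.8 in ID1 -dox 24h (log2 fold change -1.13 ± 0.11 SE, adjusted p = 2.03e-05). *Krt6b*, a keratin of activated epidermis, was 1536, 1496 and 1373 in ID1 +dox 24h, against 3335, 4036 and 3618 in ID1 -dox 24h (log2 fold change -1.32 ± 0.25 SE, adjusted p = 0.00187), while *Krt6a* (0.01) and *Krt16* (-0.30) did not pass.

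**Figure D2:**
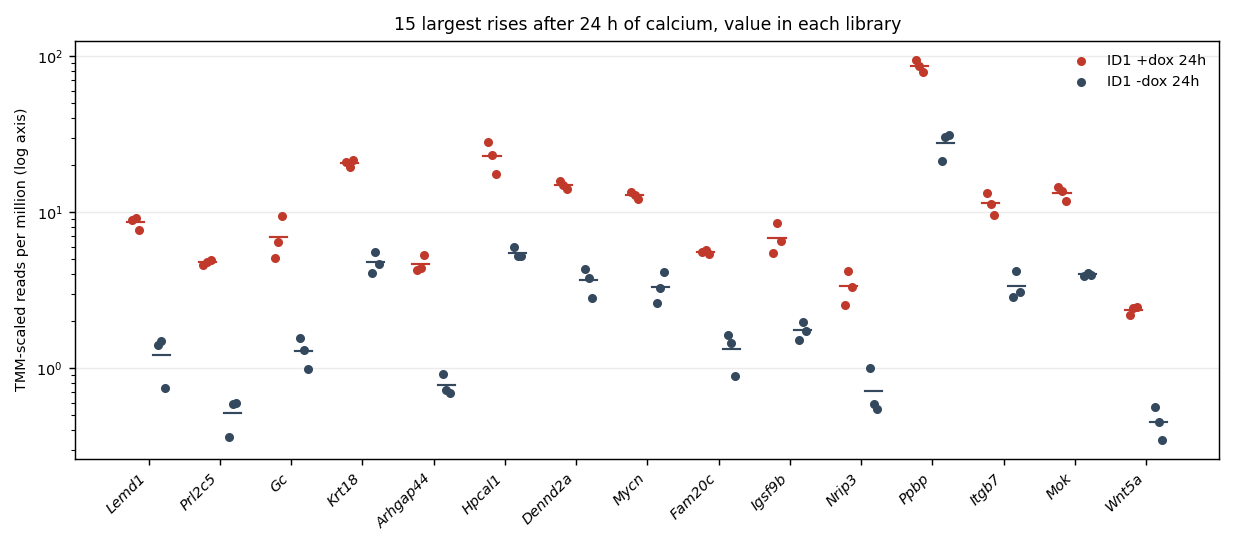
The 15 largest rises, with TMM-scaled CPM on a log axis and a point for each library (red, ID1 +dox 24h; dark blue-grey, ID1 -dox 24h; bars, group means of 3). Only genes whose groups do not overlap were eligible, so the induced libraries lie above the uninduced ones by choice. *Krt18* was at 19.3 or more against 5.58 or less.

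Simple epithelium keratins, which fill single-layered linings and are scarce in interfollicular epidermis, were called higher in 3 of 4 members, against 0.964% of all genes. *Krt18* was 20.8, 19.3 and 21.5 in the ID1 +dox 24h libraries, against 4.07, 5.58 and 4.61 in the ID1 -dox 24h libraries (log2 fold change 2.01 ± 0.23 SE, adjusted p = 5.41e-05). Its partner *Krt8* was 774, 733 and 688 in the ID1 +dox 24h libraries, against 315, 359.8 and 367 in the ID1 -dox 24h libraries (log2 fold change 1.08 ± 0.16 SE, adjusted p = 3.49e-04). *Krt7* was 131, 108 and 113 in the ID1 +dox 24h libraries, against 46.8, 55.6 and 44.9 in the ID1 -dox 24h libraries (log2 fold change 1.25 ± 0.15 SE, adjusted p = 8.61e-05). No induced library overlapped an uninduced one, as in 103 of the 104 genes called higher and in 33.8% of all genes. The count of 3 held in each of the alternatives tried. *Krt20* (-0.58) did not pass. *Krt75*, a keratin of the hair companion layer, was 36.5, 31.2 and 18 in ID1 +dox 24h, against 8.99, 9.49 and 9.82 in ID1 -dox 24h (log2 fold change 1.49 ± 0.22 SE, adjusted p = 2.92e-04). *Krt17*, raised in wounded skin and hair follicle, was 1350, 1265 and 796 in ID1 +dox 24h, against 496, 545 and 555 in ID1 -dox 24h (log2 fold change 1.06 ± 0.16 SE, adjusted p = 3.33e-04). The induced replicate 3 was the lowest induced library for both. The call for *Krt17* ended without ID1 +dox 24h replicate 1 (0.92) or 2 (0.97) and under quantile normalization (0.97), where the change stayed positive.

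*Lemd1* was 8.85, 9.17 and 7.71 in the ID1 +dox 24h libraries, against 1.4, 1.48 and 0.744 in the ID1 -dox 24h libraries (log2 fold change 2.44 ± 0.24 SE, adjusted p = 1.37e-05). *Prl2c5*, a member of the placental prolactin family, was 4.54, 4.78 and 4.95 in the ID1 +dox 24h libraries, against 0.359, 0.585 and 0.595 in the ID1 -dox 24h libraries (log2 fold change 2.38 ± 0.38 SE, adjusted p = 5.94e-04). Its near-identical copies *Prl2c2* (0.62) and *Prl2c3* (0.71) did not pass, and reads may have been moved between them. *Gc*, which encodes the vitamin D-binding protein, was 5.04, 6.37 and 9.42 in ID1 +dox 24h, against 1.56, 1.30 and 0.992 in ID1 -dox 24h (2.03). *Dennd2a*, which activates Rab proteins, was 15.9, 14.8 and 14.0 in ID1 +dox 24h, against 4.31, 3.78 and 2.83 in ID1 -dox 24h (1.91). *Hpcal1*, a calcium-binding protein first known from neurons, was 27.9, 23.3 and 17.4 in ID1 +dox 24h, against 5.95, 5.26 and 5.26 in ID1 -dox 24h (1.94). *Fam20c*, a kinase of secreted proteins, was 5.50, 5.75 and 5.35 in ID1 +dox 24h, against 1.64, 1.44 and 0.893 in ID1 -dox 24h (1.75). *Itgb7*, an integrin beta chain usual in lymphocytes, was 13.2, 11.3 and 9.54 in ID1 +dox 24h, against 2.84, 4.18 and 3.08 in ID1 -dox 24h (1.62), with no leukocyte marker in the table. *Mok*, *Igsf9b* and *Nrip3* rose by 1.61, 1.69 and 1.66.

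The Wnt, Notch, G1 and matrix lists held 1 or 2 genes called higher each, against 0.964% of all genes. *Mycn*, a basic helix-loop-helix factor that drives growth, was 13.3, 12.9 and 12.1 in the ID1 +dox 24h libraries, against 2.60, 3.24 and 4.12 in the ID1 -dox 24h libraries (log2 fold change 1.82 ± 0.16 SE, adjusted p = 7.46e-06). *Ccnd1*, cyclin D1 of G1 entry and 1 of 2 calls among 36 G1 regulators, was 124, 127 and 109 in the ID1 +dox 24h libraries, against 52.4, 52.9 and 52.4 in the ID1 -dox 24h libraries (log2 fold change 1.18 ± 0.17 SE, adjusted p = 2.91e-04). *Wnt5a* was 2.20, 2.41 and 2.48 in ID1 +dox 24h, against 0.559, 0.450 and 0.347 in ID1 -dox 24h (1.59) and *Wnt7a* 29.1, 24.4 and 31.5 in ID1 +dox 24h, against 11.5, 12.9 and 11.6 in ID1 -dox 24h (1.2), secreted ligands of Frizzled receptors, and these 2 were the calls among 26 Wnt pathway genes, whose median was -0.01. With an adjusted p under 0.05, 5 Wnt genes were higher and 4 lower, against 10.6% and 10.9% of all genes. Among them were *Wnt7b* (0.91), *Wnt10a* (0.58), *Fzd6* (-0.54) and *Rnf43* (-0.64). The 4 became 2 without ID1 +dox 24h replicate 2 and 7 without replicate 3. *Lfng*, which adds sugar to Notch and changes its choice of ligand, was 14.0, 14.8 and 13.3 in ID1 +dox 24h, against 6.27, 5.76 and 4.76 in ID1 -dox 24h (log2 fold change 1.26 ± 0.16 SE, adjusted p = 8.97e-05), the 1 call among 21 Notch genes. *Loxl4*, a crosslinker of collagen, was 47.3, 48.6 and 42.5 in ID1 +dox 24h, against 17.9, 16.9 and 15 in ID1 -dox 24h (log2 fold change 1.45 ± 0.10 SE, adjusted p = 6.57e-07), the 1 call among 19 interstitial matrix genes, and *Adamts15*, a protease of the matrix, 10.5, 10.5 and 10.4 in ID1 +dox 24h, against 2.88, 3.28 and 3.42 in ID1 -dox 24h (1.58). *Acta2*, smooth muscle actin, was 19.0, 19.1 and 13.0 in ID1 +dox 24h, against 7.67, 7.10 and 7.59 in ID1 -dox 24h (1.12), and *Gjb5*, connexin 31.1, 11.1, 10.9 and 7.19 in ID1 +dox 24h, against 2.80, 3.42 and 3.47 in ID1 -dox 24h (1.44). The groups were apart in each of these genes, as in 103 of the 104 genes called higher and in 33.8% of all genes.

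Genes of G2 and mitosis rose by small steps. Of 68 tested 41 were higher with an adjusted p under 0.05 and none lower, against 10.6% higher among all genes, yet none reached 2-fold and the median was 0.40. *Ccna2*, cyclin A2, was 26.2, 26.5 and 26.3 in the ID1 +dox 24h libraries, against 15, 14.7 and 19.3 in the ID1 -dox 24h libraries (log2 fold change 0.68 ± 0.10 SE, adjusted p = 4.20e-04). *Plk1*, the polo-like kinase of mitosis, was 30.4, 30.5 and 22.6 in ID1 +dox 24h, against 16.6, 17.3 and 15.4 in ID1 -dox 24h (0.73). *Aurka* (0.69), *Cenpf* (0.81) and *Foxm1* (0.74), the factor that drives this set, stood in the same range. Over the list the summed level was 1985, 2101 and 1893 in ID1 +dox 24h libraries, against 1434, 1381 and 1538 in ID1 -dox 24h libraries. Leaving out ID1 -dox 24h replicate 2 lowered the 41 to 23, and a fit of the 6 libraries alone to 21. Of 59 S phase genes 5 were higher and 2 lower with an adjusted p under 0.05, against 10.6% and 10.9% of all genes. Their median was 0.07. The 5 became 2 without ID1 +dox 24h replicate 2 and 12 without replicate 3, where the 2 became 4, and *E2f2* (0.98) was highest. Of 18 YAP targets 8 were higher and 1 lower with an adjusted p under 0.05, against 10.6% and 10.9% of all genes, and none was called. The 8 became 5 without ID1 -dox 24h replicate 1 and in a fit of all 24 libraries, and the 1 lower gene did not pass without ID1 +dox 24h replicate 1. *Axl* was 446, 418 and 422 in ID1 +dox 24h, against 258, 301 and 258 in ID1 -dox 24h (0.66) and *Amotl2* 179, 182 and 200.4 in ID1 +dox 24h, against 119, 122 and 109 in ID1 -dox 24h (0.68), while *Ccn1* (0.28) did not pass. *Cdkn2a*, an inhibitor of the cell cycle, was 32.1, 32.4 and 19.9 in ID1 +dox 24h, against 14.8, 12.8 and 12.6 in ID1 -dox 24h (log2 fold change 1.01 ± 0.21 SE, adjusted p = 0.00329), and 0.90 to 0.98 without ID1 +dox 24h replicate 1 or 2 or ID1 -dox 24h replicate 2 or 3, just short of a call.

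**Figure D3:**
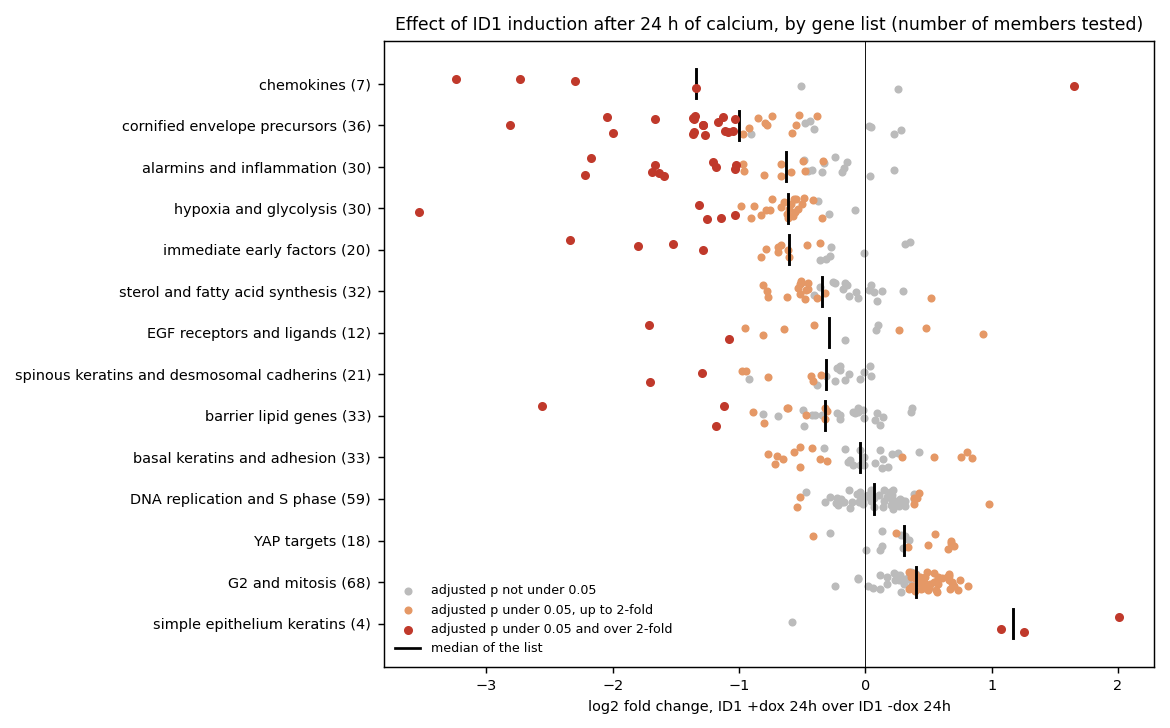
Log2 fold change of ID1 +dox 24h over ID1 -dox 24h for the members of 14 gene lists, a point for each gene (red, called; orange, adjusted p under 0.05 up to 2-fold; grey, adjusted p not under 0.05) with the list median as a black bar. The medians of chemokines (-1.34), envelope precursors (-1.0), alarmins (-0.63) and hypoxia genes (-0.61) lie left of 0, and that of G2 and mitosis genes (0.40) right of it.

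Other lists held few or no calls. None of 74 cytosolic ribosomal protein genes, 74 nuclear respiratory chain genes, 71 mitochondrial ribosome genes, 39 genes of the ATF4 response, 26 of the BMP and TGF-beta pathway, 14 of the interferon response or 23 NRF2 targets was called at 24h. Of all genes 2.11% were called, a share at which lists of this size would hold few calls or none. Without ID1 +dox 24h replicate 3, 2 genes of the ATF4 list were called higher. Of its 39 genes 11 were higher and 3 lower with an adjusted p under 0.05, against 10.6% and 10.9% of all genes, and the 3 became 13 without that library. Among the 14 were *Phgdh* (0.90), *Pck2* (0.96) and *Ddit4* (-0.91).

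The calcium response of control cells was taken from *shScr* cells, which share no library with the ID1 comparison. The table heads these columns H2BGFP, the vector of the hairpins, and they were read as *shScr* because the other hairpin columns are headed as *Id1* silencing. In *shScr* 24h against *shScr* 0h 1172 of 10790 genes were called higher (10.9%) and 860 lower (7.97%). Of the 124 genes lower in ID1 +dox 24h, 68 were raised by calcium in *shScr* cells and 3 were lowered. These are 54.8% and 2.42% of the falls. Of the 104 genes higher in ID1 +dox 24h, 27 were lowered by calcium and 12 raised (26.0% and 11.5%). Seen from the calcium side, 5.84% of 1164 calcium-raised genes were called lower with ID1, against 1.15% of all genes, and the median over them was -0.06. Most calcium-raised genes were not called, *Krt78* (4.06 with calcium, -0.20 with ID1) and *Tgm1* (2.47 and -0.01) among them. *Sprr2b* was raised by 3.91 with calcium, *Krt10* by 3.59, *Ndufa4l2* by 5.65, *Fabp4* by 3.92 and *Car12* by 3.13. *Lemd1* (-3.46), *Ccnd1* (-2.51), *Lfng* (-2.23) and *Adamts15* (-2.85) were lowered with calcium. Some genes broke this order. *Il24* changed by -0.98 with calcium in *shScr* cells (adjusted p = 0.269), and *Fosl1* by -0.35 (adjusted p = 0.666). *Krt7* was raised by calcium (1.11) and higher in ID1 +dox 24h. Uninduced ID1 cells did not follow *shScr* cells in every gene. From ID1 -dox 0h to ID1 -dox 24h mean *Il24* rose from 78.9 to 371 and mean *Fosl1* from 6.50 to 86.7. Mean *Id1*, which changed by -0.99 with calcium in *shScr* cells, rose from 10.3 to 67.0. *Fabp4* (46.4 to 68.6) and *Car12* (17.3 to 24.2) rose less than in *shScr* cells. *Tgm3*, raised by 2.77 in *shScr* cells, fell (30.9 to 12.8). *Sprr2b*, *Krt10* and *Ndufa4l2* rose in both.

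**Figure D4:**
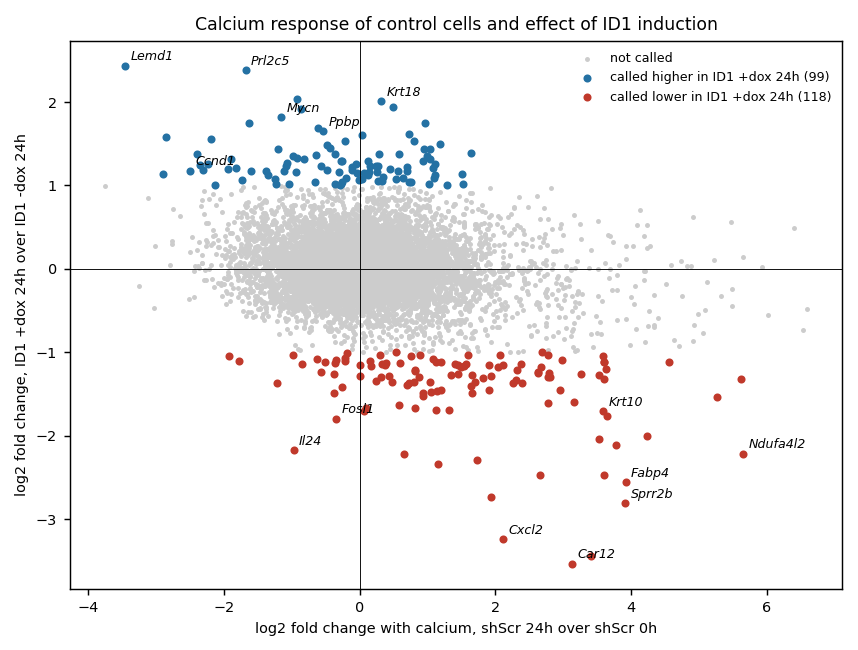
Log2 fold change with calcium in *shScr* cells (24h over 0h, horizontal) against log2 fold change of ID1 +dox 24h over ID1 -dox 24h (vertical), a point for each gene tested in both fits. The 118 genes called lower with ID1 (red) reach far to the right, with *Ndufa4l2* at 5.65, and the 99 called higher (blue) lie on both sides of 0.

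In low calcium, ID1 induction called 569 of 10789 genes (5.27%), 460 higher (4.26%) and 109 lower (1.01%). The libraries differ from those compared at 24h, but all 12 entered 1 fit and share its variance estimates and gene filter. Of the 228 genes called at 24h, 99 were called in the same direction at 0h, which is 43.4% of the 24h calls and 17.4% of the 0h calls. They were 75 of the rises and 24 of the falls. *Krt18* (2.48 at 0h), *Lemd1* (3.11), *Loxl4* (1.82) and *Hpcal1* (1.85) were raised at both times, and *Hcar2* (-2.50), *Tgm3* (-2.38) and *Car12* (-1.96) were lower at both. Another 8 genes were lower at 24h and higher at 0h, and none was higher at 24h and lower at 0h.

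The interaction tested the difference between the 2 effects and called 383 genes (3.55%), 332 with a 24h effect below the 0h effect (3.08%) and 51 above it (0.473%). Among the 124 falls at 24h, 62 had such a lower effect and 2 a higher one. Among the 104 rises, 11 had a lower effect and 2 a higher one. The interaction contains the 24h effect that chose these genes, so the choice itself favours lower effects among falls and higher ones among rises. The 4 lower chemokines were among the 62 falls with a lower effect. *Cxcl2* was 0.138, 0.198 and 0.263 in the ID1 +dox 0h libraries, against 0.138, 0.174 and 0.172 in the ID1 -dox 0h libraries, low in both groups, and the interaction was -3.32 (adjusted p = 5.51e-06). *Il24* at 0h was 75.6, 111 and 72.8 in the ID1 +dox 0h libraries, against 65.1, 97.0 and 74.6 in the ID1 -dox 0h libraries. The induced libraries at 24h, from 62.4 to 95.9, overlapped the low-calcium libraries, and the uninduced libraries at 24h, from 288 to 481, stood above them. *Fosl1* reversed: at 0h it was 18.5, 31.1 and 20.7 in the ID1 +dox 0h libraries, against 6.09, 7.83 and 5.57 in the ID1 -dox 0h libraries (log2 fold change 1.75), and the interaction was -3.55 (adjusted p = 1.99e-06). *Bnip3* did likewise with 0.93 at 0h and an interaction of -2.18 (adjusted p = 3.03e-05). *Krt17* was raised at both times, but far more at 0h, with 176, 207 and 187 in the ID1 +dox 0h libraries, against 15.5, 14.9 and 19.2 in the ID1 -dox 0h libraries (3.49). *Mycn* kept a similar level in induced cells at both times, and its interaction of 0.91 was under the 2-fold limit.

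Of the 332 genes with the lower effect at 24h, 186 were called higher at 0h and not called at 24h. The 0h effect is part of the interaction too, so rises at 0h are favoured among these 332. *Cldn4*, a tight junction protein, was 421, 431 and 428 in the ID1 +dox 0h libraries, against 87.1, 92.4 and 95.9 in the ID1 -dox 0h libraries (2.21) and 1107, 975 and 995 in ID1 +dox 24h, against 848, 1133 and 1059 in ID1 -dox 24h (0.03 ± 0.10). *Trib3*, a pseudokinase of the stress response, had 2.92 at 0h and 0.20 at 24h, and *Cdsn* 3.14 and 0.40. *Cwh43* had 2.71 and 0.49. *Tnfaip3* crossed over, with 1.49 at 0h and -0.67 at 24h. *Krt15* was an exception with -2.09 at 0h and -0.33 at 24h, an interaction of 1.76 (adjusted p = 0.00873).

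**Figure D5:**
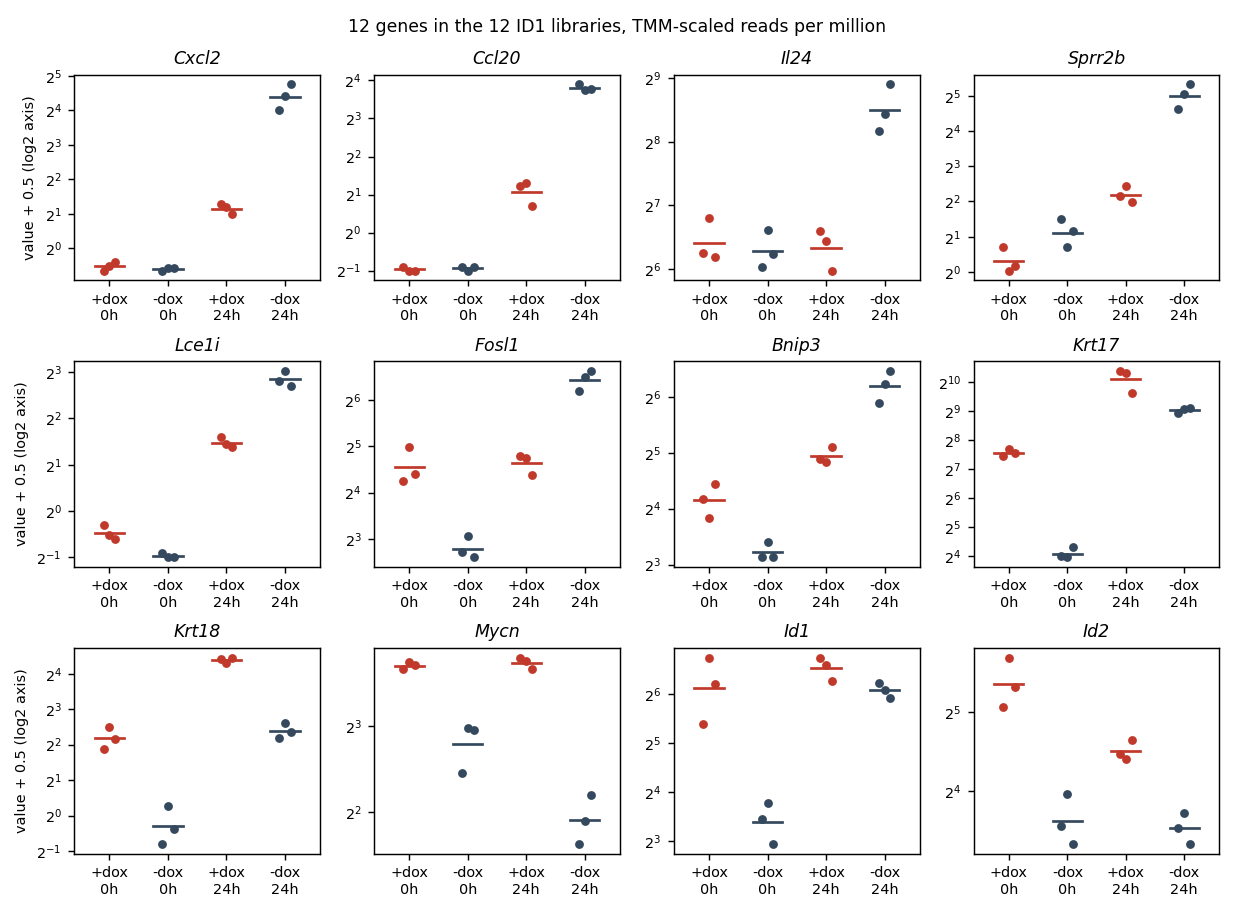
Values plus 0.5 on a log2 axis for 12 genes in the 12 ID1 libraries (red, +dox; dark blue-grey, -dox; bars, mean on the log2 scale of 3). *Cxcl2*, *Ccl20* and *Il24* separate at 24h, *Fosl1* and *Bnip3* change order between 0h and 24h, and *Krt18* is higher in +dox at both times.

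Silencing of *Id1* was measured in other libraries, *shId1* 24h against *shScr* 24h, where 361 of 10790 genes were called (3.35%), 238 higher (2.21%) and 123 lower (1.14%). *Id1* there had a log2 fold change of -0.67 (adjusted p = 0.265), which did not pass. Of 118 genes lower in ID1 +dox 24h and tested in that fit, 30 were higher with *shId1* (25.4% of them, 12.6% of the *shId1* rises) and 5 lower. Of 99 genes higher with ID1, 6 were lower with *shId1* and 13 higher. *S100a8* (-1.69 with ID1, 4.42 with *shId1*), *Il1f9* (-1.60, 3.48), *Lce3f* (-1.28, 3.99) and *Ccl20* (-2.74, 2.49) were opposed. *Prl2c5* (2.38, 4.24), *Ppbp* (1.65, 2.87), *Krt18* (2.01, 1.47) and *Wnt7a* (1.2, 1.32) were higher in both, and *Sprr2b* (-2.81, -1.19) was lower in both. *Cxcl1* (1.79) and *Cxcl2* (1.95) did not pass with *shId1*, with adjusted p of 0.093 and 0.086. The hypoxia list had a median of 0.225 with *shId1* and 1 of 30 members called, higher.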

How the data were processed

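Stranded mRNA libraries were sequenced and converted with bcl2fastq 2.19.1.403. Per the labels, CASAVA was used and the genome build was GRCm38, and the aligner and counter are not given in the sources used here. The deposited signal values are gene counts that the authors scaled with TMM in edgeR to CPM, without division by length although the table is titled FPKM. All values of the 6 libraries at 24h were within 0.05 of a whole number of reads, so reads could be recovered. limma 3.58.1 in R 4.3.3 was fitted to log2(value + 0.5) of the 12 ID1 libraries together, with trended, robust empirical Bayes, on genes of value 1 or more in 3 libraries. The 12 shRNA libraries were fitted apart by the same steps. Calls needed an adjusted p under 0.05 and a change over 2-fold. edgeR 4.0.16 (quasi-likelihood, recovered reads) was an alternative. The procedure was checked on simulated data. Named genes were the Id and partner genes, the 15 largest rises and falls with a mean of 2 or more, clear groups and a full symbol, up to 4 called members per list, 6 interaction genes and genes the study's text names. Other list members were chosen as examples after their values were seen. Members and lists were chosen with earlier results of these data known. Promoter windows came from RefSeq (GRCm38.p6), which matched 69 of 96 named genes.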

Additional observations from a re-analysis of the deposited data

Results flagged for a closer look

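Among the named genes, 40 had an effect of ID1 induction that differed between 24h and 0h by the interaction test of limma on the 12 ID1 libraries (adjusted p under 0.05 and over 2-fold), given here as the 24h effect minus the 0h effect on the log2 scale. Secreted factors were *Cxcl2* (-3.32), *Csf3* (-2.93), *Ccl20* (-2.71), *Hbegf* (-2.37), *Il24* (-2.30), *Cxcl1* (-2.13), *Areg* (-1.85), *Cxcl3* (-1.77), *Wnt7a* (-1.61), *Il23a* (-1.54) and *Gc* (-1.24). Transcription and feedback regulators were *Fosl1* (-3.55), *Egr1* (-3.07), *Trib3* (-2.71), *Id1* (-2.26), *Tnfaip3* (-2.15), *Bhlhe41* (-1.74), *Slfn2* (-1.68), *Ier3* (-1.61), *Klf4* (-1.34), *Sox4* (-1.32) and *Id3* (-1.17). Keratin, junction and differentiation genes were *Cdsn* (-2.73), *Krt17* (-2.43), *Klk6* (-2.19), *Cldn4* (-2.19), *Sprr2b* (-2.0), *Alox12b* (-1.99), *Lce1i* (-1.86), *Sprr3* (-1.63), *Tgm1* (-1.36) and *Sprr2a3* (-1.11). *Krt15* (1.76), a keratin of basal progenitors, was the exception among the 40, with the 24h effect above the 0h effect. *Klk6* and *Il23a* were at 0 in all 3 libraries of a 0h group (ID1 -dox 0h for *Klk6*, ID1 +dox 0h for *Il23a*), and *Ccl20* in both 0h groups and *Lce1i* in ID1 -dox 0h were at 0 or near it, so these values depend on the pseudocount. *Cxcl2* in both 0h groups, *Csf3* and *Gc* in ID1 -dox 0h and *Slfn2* in ID1 +dox 0h lay under the pseudocount of 0.5 in every library. Their values depend on it too. Hypoxia and other genes were *Smtnl2* (-2.27), *Cwh43* (-2.22), *Bnip3* (-2.18), *Ero1l* (-2.03), *Ndrg1* (-2.03), *Car12* (-1.58) and *Ndufa4l2* (-1.46). Many of the named genes were chosen by their 24h effect or by the interaction itself, which favours a high count here.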

How the results depend on the processing

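Without the fold limit, 2330 genes differed at 24h (1149 higher, 1181 lower) and the interaction called 1128 (256 above, 872 below). Quantile normalization gave 90 interaction genes with the 24h effect above the 0h effect, and array weights gave 592 interaction genes, 144 of them above; the estimation of those weights stopped before it converged. Leaving out 1 library gave 223 to 289 genes at 24h (105 to 144 higher, 112 to 145 lower) and 329 to 450 interaction genes (34 to 80 above, 295 to 370 below), with 80 above without ID1 +dox 24h replicate 3. Whether replicate numbers pair the samples is not stated, and correlations of 3 libraries per group cannot settle it. Deviations of same-numbered libraries correlated at -0.0731, -0.0201 and 0.228 between the 24h groups. Between the 0h groups they correlated at 0.276, 0.468 and -0.113. With the replicate block 228 genes were called at 24h (104 higher, 124 lower) and 382 by the interaction (49 above, 333 below). edgeR on recovered reads called 287 genes, 225 of which limma called too. The share of calls that were higher ran from 40.7% to 51.6% over the settings. Of 70 named genes called, 15 lost the call under some setting and none changed direction. Besides those given above, these were *Bhlhe40* (-0.91 to -1.0 where lost), *Bhlhe41* (-0.86 to -1.0), *Nr1d1* (0.89 to 0.99), *Trp73* (-0.75 to -2.0), *Wnt7a* with array weights (0.99), and, with all 24 libraries, *Csf3* (adjusted p = 0.0683 in limma) and *Sprr3* (0.119). The causes were not tested. The effect of depth on genes of few reads was not tested.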
